A study of Mus musculus with 23 samples.

Results

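Members of the transforming growth factor beta (TGF-beta) pathway were described across 4 groups of mouse hippocampal microglia. The 10 genes, of 18876 in the count table, were taken as a named list: the ligand Tgfb1, the ligand's surface anchor Nrros, the receptors Tgfbr1 and Tgfbr2, the transducers Smad2, Smad3 and Smad4, the inhibitory Smad7, and the repressors Ski and Skil. All 10 passed the filter on low counts. Cells carrying CD11b, a surface integrin of microglia and other myeloid cells, were pulled with magnetic beads from the digested hippocampi of female mice, and their poly(A) RNA was sequenced in bulk.

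Every mouse carried Slc11a2 fl/fl, a floxed gene for the iron importer DMT1, and 1 copy of Cx3cr1-CreERT2, on a mixed 129S;C57BL/6J background. The mice were either hemizygous for APP/PS1, transgenes that produce amyloid-beta plaques, or WT littermates. Slc11a2-KD mice were dosed at 5 to 6 months of age with 4 mg tamoxifen by gavage, once a day over 5 days, and Control mice with 200 µL corn oil. All were collected at 15 to 18 months. The groups used here were Control WT (n = 6), Control APP/PS1 (n = 6), Slc11a2-KD WT (n = 5) and Slc11a2-KD APP/PS1 (n = 5), and 1 further Control APP/PS1 sample, 0010, was left out and is given apart. Tamoxifen was given to the Slc11a2-KD mice only, so the drug and the recombination cannot be told apart, and Cx3cr1 also drives Cre in macrophages outside the parenchyma.

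TGF-beta is secreted bound to a latency peptide and is released where an integrin pulls on that complex, which NRROS holds on the surface of microglia and related macrophages. The free ligand binds TGFBR2, which recruits and phosphorylates TGFBR1. TGFBR1 phosphorylates SMAD2 and SMAD3, and these enter the nucleus with SMAD4. SMAD7 blocks the receptor, and SKI and SKIL (SnoN) hold SMAD targets silent. In the brain the pathway is known for keeping microglia in their homeostatic state, with genes such as Tmem119 and P2ry12 among those that depend on it.

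Each sample gave 31128643 to 54872491 counts over genes (median 41460280). Levels are in CPM, counts scaled by TMM to a common library total, and p-values measure the spread between these samples. The 9 microglial markers measured summed to at least 29097 CPM in every sample used. Their sums spanned 37039 to 42322 CPM in Control WT and 29097 to 32934 CPM in Control APP/PS1. Choroid plexus markers (Ttr and 9 others) summed to 1967 CPM in 0012 and 1015 CPM in 0015 of Control WT. The other 4 Control WT samples, at 1.09 to 5.34 CPM, overlapped Control APP/PS1 at 1.30 to 5.41 CPM, where Slc4a5, Kcne2 and Clic6 were at 0. In Slc11a2-KD the sums reached 790 CPM in WT and 489 CPM in APP/PS1. In bulk RNA, fewer cells of a type and less RNA per cell cannot be told apart. The gene total of Slc11a2 was 35.1 ± 5.13 CPM (SD, n = 6) in Control WT and 34.2 ± 4.75 CPM (n = 5) in Slc11a2-KD WT. In APP/PS1 it was 43.2 ± 3.93 CPM (n = 6) for Control and 56.5 ± 13.5 CPM (n = 5) for Slc11a2-KD. It counts every exon, so it does not check the loss of the floxed exons, and the groups are named by their labels.

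The promoters of the receptors and of Nrros are shown because these genes passed the test between the Control groups, with Tgfbr2 higher and the other genes lower in APP/PS1. The sequences are from RefSeq on GRCm38.p6 and run from 250 bases before to 50 bases after the annotated start, and 6 of the 10 members matched that table. Smad2 passed as well, lower in APP/PS1, but was not among those 6. Capitals mark the Smad box, which is CAGAC or its reverse complement GTCTG, and the core of the macrophage factor PU.1, which is GAGGAA or TTCCTC. The Tgfbr1 window spans chr4:47352972-47353271 on the plus strand, the Tgfbr2 window chr9:116175314-116175613 on the minus strand and the Nrros window chr16:32165545-32165844 on the minus strand.
Tgfbr1: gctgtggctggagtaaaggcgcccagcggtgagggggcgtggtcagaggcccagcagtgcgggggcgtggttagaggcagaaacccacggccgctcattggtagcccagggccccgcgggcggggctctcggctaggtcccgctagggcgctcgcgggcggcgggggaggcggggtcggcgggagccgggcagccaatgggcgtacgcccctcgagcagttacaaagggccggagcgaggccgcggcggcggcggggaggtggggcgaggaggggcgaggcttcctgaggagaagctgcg
Tgfbr2: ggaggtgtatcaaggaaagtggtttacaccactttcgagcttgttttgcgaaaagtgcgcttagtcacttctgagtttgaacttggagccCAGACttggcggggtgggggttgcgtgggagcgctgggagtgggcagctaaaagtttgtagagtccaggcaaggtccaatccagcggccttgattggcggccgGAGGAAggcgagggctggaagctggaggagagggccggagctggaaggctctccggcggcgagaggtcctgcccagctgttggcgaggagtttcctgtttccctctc
Nrros: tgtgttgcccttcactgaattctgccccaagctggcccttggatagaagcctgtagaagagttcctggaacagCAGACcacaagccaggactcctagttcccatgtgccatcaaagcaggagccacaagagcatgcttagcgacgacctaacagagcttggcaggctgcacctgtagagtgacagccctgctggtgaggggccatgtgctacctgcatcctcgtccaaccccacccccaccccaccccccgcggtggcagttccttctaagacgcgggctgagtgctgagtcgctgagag
The Tgfbr2 window held a Smad box 160 bases before the start and a PU.1 core 57 bases before it, and the Nrros window held a Smad box 177 bases before the start. No match to either motif, or to the AP-1 motif TGANTCA, lay in the Tgfbr1 window or in those of Tgfb1, Smad3 and Ski. Of 32851 mouse promoters of this length, 49.6% held a Smad box, 28.3% a PU.1 core and 7.81% an AP-1 motif, on either strand. A match describes these letters only. The GC content was 74.7% for Tgfbr1 and 59% for both Tgfbr2 and Nrros.

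Between genes, levels were compared only per kb of summed exon length. On that scale Tgfbr1, the type I receptor kinase, led the list with a mean over the 4 groups of 617 CPM per kb, followed by Tgfbr2 with 59.4 and Tgfb1 with 55.1 CPM per kb. Nrros had 38.1, Ski 37.0 and Skil 19.8 CPM per kb. The Smads were the lowest, from 13.4 CPM per kb for Smad7 and 13 for Smad3 down to 8.61 for Smad4 and 4.82 for Smad2. The receptors did not stand in a fixed ratio: Tgfbr1 was at 729 and Tgfbr2 at 46.1 CPM per kb in Control WT, against 457 and 84.8 in Control APP/PS1.

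**Figure D1:**
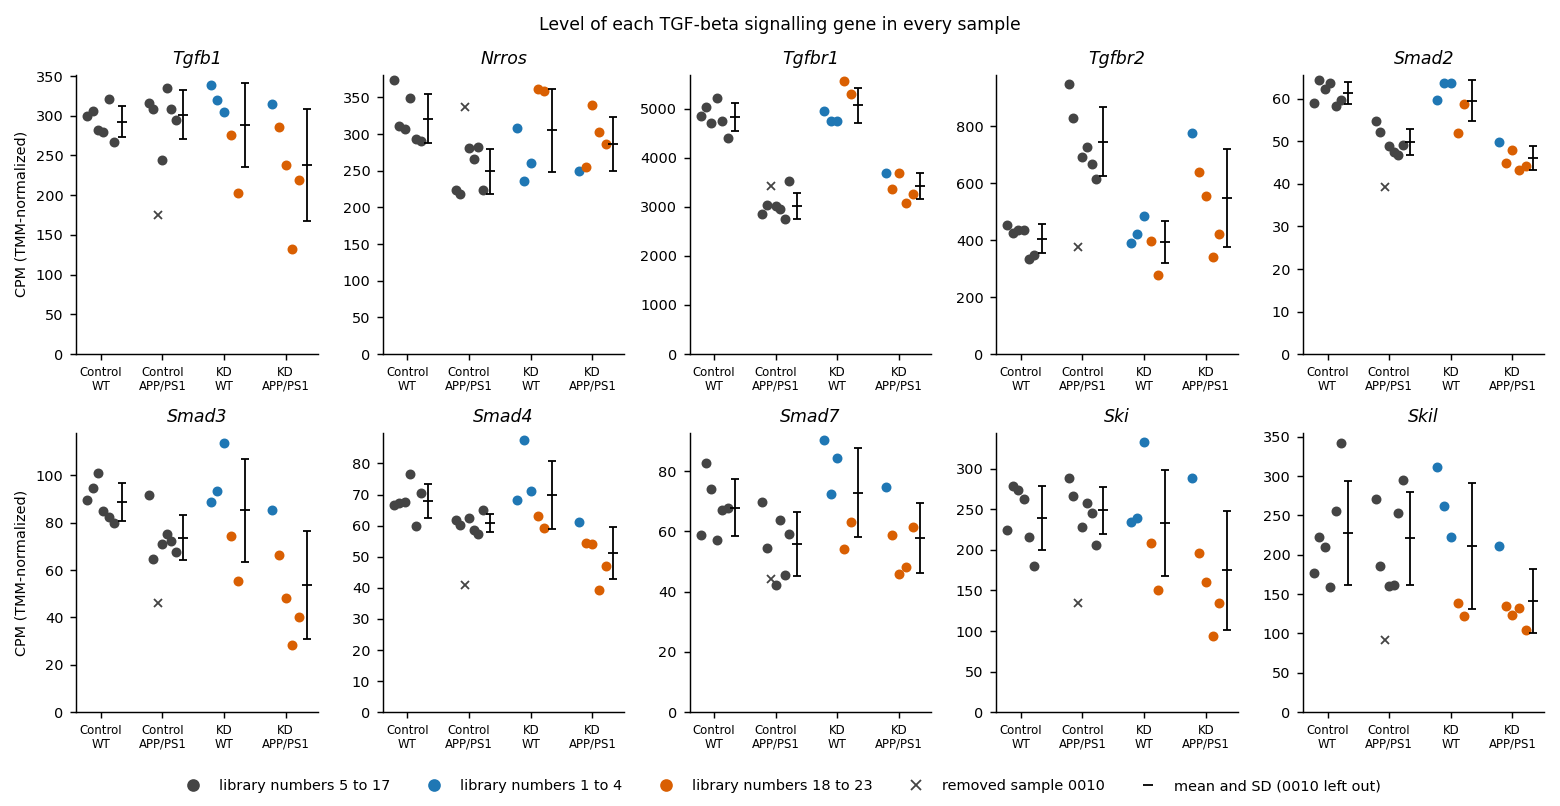
CPM of each of the 10 members in every sample of the 4 groups, with 1 panel per gene, points coloured by run of library numbers, a cross for the removed sample 0010, and bars for the group mean and SD (n = 6, 6, 5 and 5). Tgfbr1 is lower and Tgfbr2 higher in Control APP/PS1 than in Control WT without overlap, and Skil in Slc11a2-KD APP/PS1 shows 1 sample, 0004, at 211 CPM above the other 4.

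The first comparison asked how the pathway's genes differ between APP/PS1 and WT mice given oil. Tgfbr1 fell, Tgfbr2 rose, and Smad2 and Nrros fell by less. The ligand, the other Smads and both repressors did not pass the test. The 4 members that passed at an adjusted p under 0.05 (edgeR quasi-likelihood test, Benjamini-Hochberg over 18759 genes) compare with 10.5% of all genes tested, 5.99% higher and 4.48% lower. The same 4 members, 1 higher and 3 lower, did not overlap between the groups, against 8.36% of all genes (5.33% higher and 3.03% lower). The median log2 fold change was -0.22 over the members and -0.02 over all genes tested.

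Tgfbr1 (chr4:47353134-47414931, GRCm39, plus strand) spanned 4401 to 5216 CPM in Control WT with a median of 4801 CPM. In Control APP/PS1 it spanned 2755 to 3518 CPM with a median of 2988 CPM. Every APP/PS1 sample lay below every WT sample. The log2 fold change was -0.68 (SE 0.08, adjusted p = 4.2e-06), and it stayed between -0.73 and -0.65 with any 1 of the 12 samples left out.

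Tgfbr2 (chr9:115913361-116004800, GRCm39, minus strand), the type II receptor that binds the ligand, spanned 335 to 455 CPM in Control WT with a median of 430 CPM. In Control APP/PS1 it spanned 616 to 947 CPM with a median of 709 CPM. Its groups were also fully apart, in the opposite direction to Tgfbr1. The log2 fold change was 0.88 (SE 0.17, adjusted p = 0.000777), from 0.80 to 0.92 with any 1 sample left out. A lncRNA on the opposite strand, Gm4668, covers 443 bp of the Tgfbr2 exons (5.04%), and Gm32435 covers 61 bp of those of Tgfbr1 (0.921%). Whether counting used the strand is not given in the sources used here.

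Smad2 (chr18:76374327-76445180, GRCm39, plus strand), a receptor-activated transducer, spanned 58.4 to 64.3 CPM in Control WT with a median of 61.1 CPM. In Control APP/PS1 it spanned 46.8 to 54.7 CPM with a median of 49.0 CPM, again without overlap. It fell by 0.30 on the log2 scale (SE 0.08, adjusted p = 0.0189).

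Nrros (chr16:31960320-31984521, GRCm39, minus strand) spanned 290 to 373 CPM in Control WT with a median of 309 CPM, and 218 to 282 CPM in Control APP/PS1 with a median of 245 CPM. Its groups did not overlap either. Its log2 fold change of -0.37 (SE 0.12, adjusted p = 0.0463) lay close to the threshold. With 1 sample left out, Nrros passed in 4 of 12 fits (adjusted p 0.0421 to 0.11). It failed without any 1 of 0006, 0008, 0009 and 0012 in Control WT or of 0005, 0007, 0013 and 0017 in Control APP/PS1. The lncRNA Gm61064 covers 510 bp of its exons (6.69%) on the opposite strand.

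Tgfb1 (chr7:25386390-25404506, GRCm39, plus strand), the ligand, spanned 267 to 321 CPM in Control WT and 245 to 335 CPM in Control APP/PS1, with medians of 291 and 309 CPM. The ranges overlapped almost completely, and the log2 fold change was 0.04 (SE 0.15, adjusted p = 0.919). Smad3, the partner of Smad2, had a log2 fold change of -0.27 (SE 0.19, adjusted p = 0.45) from 88.7 ± 7.98 CPM to 73.7 ± 9.63 CPM (SD, n = 6 each). Smad4, the common partner, stood at -0.16 (SE 0.11, adjusted p = 0.399) and the inhibitory Smad7 at -0.28 (SE 0.15, adjusted p = 0.259). Ski and Skil, the repressors, were at 0.06 (SE 0.20) and -0.04 (SE 0.23), with adjusted p of 0.92 and 0.951. For Smad3, Smad4, Smad7, Ski and Skil the 95% interval includes the value of Smad2.

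The sums of other cell types' markers moved with this comparison, with 6 of 8 border macrophage and 4 of 8 endothelial and mural markers lower in APP/PS1, and 1 of the last higher. Of the choroid plexus markers 8 of 10 were called lower, although the sums of the groups differed only through 0012 and 0015. Of the others, 3 of 5 neutrophil, 2 of 5 monocyte, 3 of 6 oligodendrocyte and 3 of 6 neuron markers were lower, and 1 of 6 astrocyte markers was higher. Of the 9 microglial markers themselves, 3 were lower and 1 was higher. Border macrophage markers (Mrc1 and 7 others) summed to 232 to 460 CPM in Control WT and 97.8 to 209 CPM in Control APP/PS1, and their part in the members' differences was not tested. Without 0012 and 0015, the Control WT samples highest in choroid plexus markers, Tgfbr1 was at -0.68 (adjusted p = 6e-05) and Tgfbr2 at 0.86 (adjusted p = 0.00735). Smad2 at -0.29 (adjusted p = 0.0722) and Nrros at -0.37 (adjusted p = 0.111) then lost their calls in 4 against 6 samples.

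**Figure D2:**
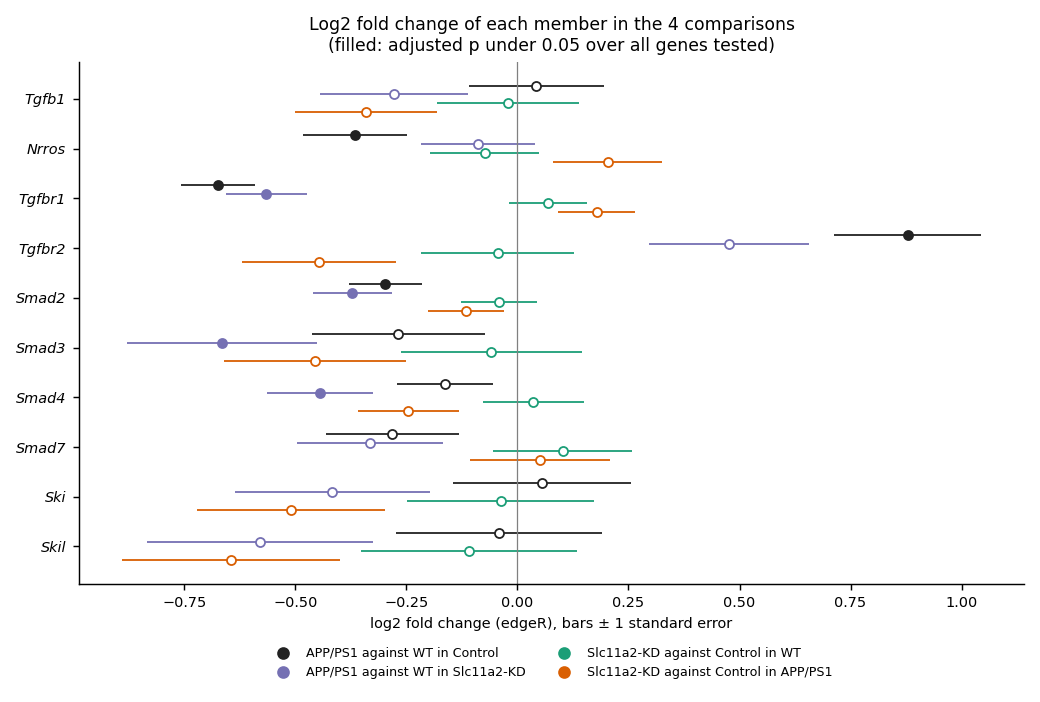
Log2 fold change of each member in each comparison of 2 groups, with error bars of 1 standard error and filled points for adjusted p under 0.05 in edgeR. Tgfbr1 lies below 0 in both comparisons of APP/PS1 with WT, Tgfbr2 above 0, and no point is filled in either comparison of Slc11a2-KD with Control.

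The same comparison within the Slc11a2-KD mice shares no sample with the first. Tgfbr1 and Smad2 fell again, and Smad3 and Smad4 passed here as well. With a term for library numbers 18 to 23, given below, Smad3 (-0.40) and Smad4 (-0.32) did not pass. In all, 4 members fell and none rose at an adjusted p under 0.05, against 16.2% of all genes (9.77% higher and 6.41% lower). Tgfbr1 and Smad2 were the 2 members whose groups did not overlap, against 7.06% of all genes (2.88% lower). The median log2 fold change was -0.39 over the members and -0.07 over all genes tested. In a fit of these 2 groups alone, with 6.1% of all genes called, Tgfbr1 at -0.54 (adjusted p = 0.0286) was the 1 member called. Smad2, Smad4 and Smad3 then had adjusted p of 0.117, 0.136 and 0.198. Over the 10 other settings, with this fit among them, Smad2 stayed between -0.38 and -0.30. Smad4 stayed between -0.45 and -0.32, and Smad3 between -0.73 and -0.40.

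Markers of other cell types moved with this comparison too, and their part in the members' differences was not tested. Border macrophage markers summed to 285 to 529 CPM in Slc11a2-KD WT and 137 to 217 CPM in Slc11a2-KD APP/PS1, with 3 of 8 called lower. Neuron markers summed to 14.6 to 26.9 and 7.31 to 11.7 CPM, with 1 of 6 lower. Both lists were without overlap between the groups. Of the endothelial and mural markers 3 of 8 were lower, with sums of 135 to 267 and 80.2 to 147 CPM that overlapped. Of the rest, 1 neutrophil and 1 oligodendrocyte marker were lower, 1 astrocyte marker was higher, and no choroid plexus marker was called. Of the 9 microglial markers themselves, 5 were lower and 1 was higher. Their sums, 37691 to 42810 CPM in WT and 32063 to 36232 CPM in APP/PS1, did not overlap.

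Tgfbr1 measured 4956, 4749, 4757, 5555 and 5303 CPM in Slc11a2-KD WT and 3695, 3371, 3688, 3086 and 3265 CPM in Slc11a2-KD APP/PS1. Every APP/PS1 sample was below every WT sample. The log2 fold change was -0.57 (SE 0.09, adjusted p = 0.000156), beside -0.68 between the Control groups, and the test of the difference between these values gave 0.11 (SE 0.12, adjusted p = 0.742).

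Smad2 measured 59.8, 63.7, 63.8, 51.9 and 58.8 CPM in Slc11a2-KD WT and 49.95, 45.0, 47.9, 43.2 and 44.2 CPM in Slc11a2-KD APP/PS1. The nearest samples of the groups were 51.9 and 49.95 CPM. The log2 fold change was -0.37 (SE 0.09, adjusted p = 0.00602). In the longest of 4 bins of summed exon length, which holds Smad2, the median over all genes was -0.315 in this comparison, and Smad2 stood at -0.06 against it.

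Smad3 measured 88.9, 93.4, 114, 74.4 and 55.5 CPM in Slc11a2-KD WT and 85.5, 66.6, 48.0, 28.3 and 40.0 CPM in Slc11a2-KD APP/PS1. The groups overlapped, through 0022 with 55.5 CPM on the WT side and 0004 with 85.5 CPM on the APP/PS1 side. Its log2 fold change was -0.67 (SE 0.21, adjusted p = 0.0354). It failed the test without any 1 of 0001, 0002 and 0003 in WT or of 0020, 0021 and 0023 in APP/PS1, with adjusted p up to 0.118.

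Smad4 (chr18:73769343-73836915, GRCm39, minus strand) measured 68.2, 87.5, 71.1, 63.0 and 59.3 CPM in Slc11a2-KD WT and 61.3, 54.6, 54.1, 39.5 and 47.1 CPM in Slc11a2-KD APP/PS1. Only 0004, at 61.3 CPM, reached into the WT range. Its log2 fold change was -0.44 (SE 0.12, adjusted p = 0.0123), and without 0002 it was -0.35 (adjusted p = 0.0548).

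Tgfbr2 measured 389, 420, 483, 396 and 277 CPM in Slc11a2-KD WT and 775, 639, 556, 342 and 423 CPM in Slc11a2-KD APP/PS1. Of the APP/PS1 samples, 3 lay above every WT sample and 2 lay among them. Its log2 fold change was 0.48 (SE 0.18) and did not pass (adjusted p = 0.0728), while DESeq2 gave 0.48 with an adjusted p of 0.0255. With 1 sample left out it ran from 0.32 (without 0004) to 0.60 (without 0021), and it passed in 1 of 10 fits. Nrros, which passed between the Control groups, was at -0.09 here (SE 0.13, adjusted p = 0.699).

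The remaining members were Tgfb1 at -0.28 (SE 0.17, adjusted p = 0.263), Smad7 at -0.33 (SE 0.16, adjusted p = 0.166), Ski at -0.42 (SE 0.22, adjusted p = 0.196) and Skil at -0.58 (SE 0.25, adjusted p = 0.121). Without 0004, the Slc11a2-KD APP/PS1 sample of library numbers 1 to 4, 6 members were lower against 25.6% of all genes called. Ski at -0.67 (adjusted p = 0.0152) and Skil at -0.77 (adjusted p = 0.0301) were then among them. Without 0022 in WT, Skil also passed at -0.72 (adjusted p = 0.0387), against 23.7% of all genes called. Other samples moved values towards 0: Tgfb1 was at -0.13 without 0021, and Ski at -0.26 without 0021 and -0.25 without 0003 in WT.

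The third comparison set Slc11a2-KD against Control in WT mice, and no difference was detectable in any member. None of the 10 passed in edgeR, DESeq2 or limma voom, and none had an unadjusted p under 0.05, against 5.92% of all genes. Over all 18759 genes, edgeR called 0, DESeq2 10 and limma voom 1. The members' log2 fold changes ran from -0.11 (Skil, SE 0.24) to 0.10 (Smad7, SE 0.16), with standard errors of 0.09 to 0.24 across the 10. No member was without overlap between the groups, against 0.197% of all genes. Tgfbr1 was at 4828 ± 283 CPM (SD, n = 6) in Control WT and 5064 ± 355 CPM (n = 5) in Slc11a2-KD WT, and Tgfbr2 at 405 ± 50.7 and 393 ± 74.7 CPM. The Slc11a2-KD WT samples spread more than the Control WT samples for Smad3 (85.2 ± 21.8 against 88.7 ± 7.98 CPM) and Ski (233 ± 65.6 against 239 ± 38.9 CPM). With Slc11a2-KD WT samples of library numbers 18 to 23 only, Skil was at -0.80, Smad3 at -0.44, Ski at -0.40 and Tgfb1 at -0.28. Tgfbr1 was then at 0.18 and Nrros at 0.17, and none of these was called. With the samples of numbers 1 to 4 only, Skil was at 0.20.

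In APP/PS1 mice the same comparison gave lower fitted values for 7 of the 10 members, and none passed the adjusted threshold. No gene of 18759 was called by edgeR, against 580 by DESeq2 and 2 by limma voom, and no member was called by any of these tools. At an unadjusted p under 0.05, 6 members were lower, beside 20.6% of all genes in either direction and 9.74% lower. Their adjusted p ran from 0.205 to 0.233. The median log2 fold change was -0.29 over the members and 0.01 over all genes, and no member was without overlap, against 0.821% of all genes.

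Markers of other cell types differed here as well, with none called by edgeR, and their part in the members' values was not tested. Choroid plexus markers summed to 86.9 to 489 CPM in 4 of 5 Slc11a2-KD APP/PS1 samples and 2.30 CPM in 0004, against at most 5.41 CPM in Control APP/PS1, and 9 of 10 had an unadjusted p under 0.05. Of the border macrophage markers 7 of 8 had values above 0 (median 0.59), 4 of them at an unadjusted p under 0.05, with sums of 137 to 217 CPM against 97.8 to 209 CPM. Lymphocyte markers summed to 172 CPM in 0023 and 11.6 to 23.03 CPM in the other 4 samples, against at most 16.2 CPM in Control APP/PS1. An unadjusted p under 0.05 was also found for 3 of 8 endothelial and mural, 2 of 6 lymphocyte, 2 of 6 oligodendrocyte and 1 of 5 monocyte markers.

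Skil (chr3:31148816-31176740, GRCm39, plus strand) had the lowest log2 fold change, -0.65 (SE 0.25, adjusted p = 0.205). It spanned 160 to 295 CPM in Control APP/PS1 with a median of 219 CPM, and measured 211, 135, 124, 132 and 104 CPM in Slc11a2-KD APP/PS1. All samples but 0004 lay below the Control range. Ski (chr4:155238532-155307543, GRCm39, minus strand) spanned 206 to 288 CPM in Control APP/PS1 with a median of 251 CPM, against 288, 196, 161, 93.9 and 134 CPM in Slc11a2-KD APP/PS1. Here too only 0004 reached the Control range. Its log2 fold change was -0.51 (SE 0.21, adjusted p = 0.207).

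Smad3 (chr9:63554049-63665476, GRCm39, minus strand) spanned 64.5 to 91.9 CPM in Control APP/PS1 with a median of 71.5 CPM. In Slc11a2-KD APP/PS1, 3 of 5 samples lay below that range (28.3, 40.0 and 48.0 CPM), and the log2 fold change was -0.46 (SE 0.20, adjusted p = 0.221). Tgfbr2 was at -0.45 (SE 0.17, adjusted p = 0.205), and 3 of its 5 samples (342, 423 and 556 CPM) lay below the Control minimum of 616 CPM. Tgfb1 was at -0.34 (SE 0.16, adjusted p = 0.233) and measured 315, 286, 238, 132 and 219 CPM against a Control range of 245 to 335 CPM. Without 0021, the sample at 132 CPM, it was at -0.20 (adjusted p = 0.542). Smad4 was at -0.25 (SE 0.11, adjusted p = 0.229).

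The other 4 members were Tgfbr1 at 0.18 (SE 0.09, adjusted p = 0.246), Nrros at 0.20 (SE 0.12, adjusted p = 0.347), Smad2 at -0.12 (SE 0.09, adjusted p = 0.462) and Smad7 at 0.05 (SE 0.16, adjusted p = 0.911). Tgfbr1 and Smad2, the members lower in APP/PS1 under both treatments, were thus not among the 6 members lower at an unadjusted p under 0.05 here. Smad7 (chr18:75500374-75529006, GRCm39, plus strand) had group means of 55.8 ± 10.5 CPM in the Control mice (SD, n = 6) and 57.8 ± 11.6 CPM in the Slc11a2-KD mice (n = 5).

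These values turned on which samples were used. Without 0004, 4 members were lower at an adjusted p under 0.05, against 16.4% of all genes called and 9.07% called lower. These were Skil at -0.84 (adjusted p = 0.0292), Ski at -0.77 (adjusted p = 0.0202), Smad3 at -0.69 (adjusted p = 0.0229) and Tgfbr2 at -0.61 (adjusted p = 0.0235). Tgfb1 at -0.46 (adjusted p = 0.0502) and Smad4 at -0.32 (adjusted p = 0.0596) were just short of a call. With 0010 kept in Control APP/PS1, no member reached even an unadjusted p under 0.05.

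**Figure D3:**
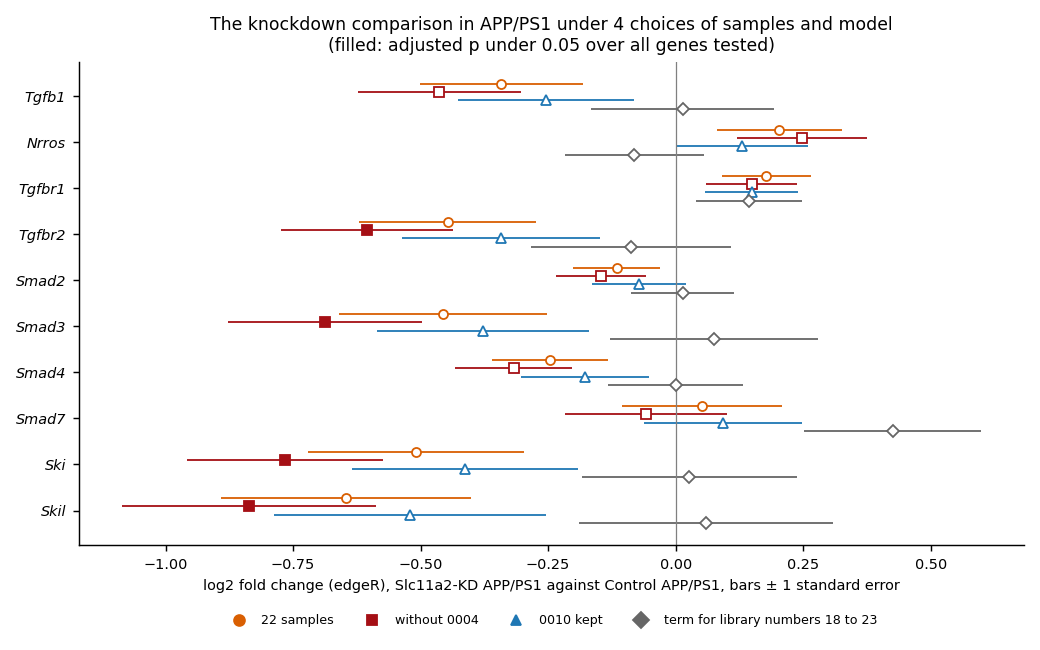
Log2 fold change of each member for Slc11a2-KD against Control in APP/PS1 under 4 choices of samples and model, with error bars of 1 standard error and filled points for adjusted p under 0.05. Skil, Ski, Smad3 and Tgfbr2 are filled only without 0004, and with a term for library numbers 18 to 23 every member but Smad7 and Tgfbr1 lies near 0.

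The samples carry library numbers 1 to 23, and the Slc11a2-KD samples hold numbers 1 to 4 (3 WT and 0004) and 18 to 23 (2 WT and 4 APP/PS1), while every Control sample lies between. What the runs of numbers stand for is not given in the sources used here. Within the 10 Slc11a2-KD samples, with the genotype in the model, 4 members were lower in 18 to 23 than in 1 to 4, against 18.8% of all genes called and 8.91% called lower. These were Skil at -0.91 (adjusted p = 0.00691), Ski at -0.73 (adjusted p = 0.0297), Smad3 at -0.71 (adjusted p = 0.0379) and Smad7 at -0.47 (adjusted p = 0.0309).

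Skil spanned 211 to 311 CPM in the 4 samples of numbers 1 to 4, of both genotypes, and 104 to 138 CPM in the 6 of numbers 18 to 23. Ski spanned 234 to 332 CPM and 93.9 to 209 CPM, and Smad3 85.5 to 114 CPM and 28.3 to 74.4 CPM. With Tgfb1 (305 to 338 CPM and 132 to 286 CPM) and Smad7 (72.3 to 90.4 CPM and 45.9 to 63.0 CPM), 5 members were lower without overlap, against 11.1% of all genes. Tgfbr1 differed by 0.06 on the log2 scale between the runs (adjusted p = 0.777). Choroid plexus markers summed to 2.30 to 50.3 CPM in numbers 1 to 4 and 86.9 to 790 CPM in 18 to 23. The 18 early response genes, which rise quickly during cell isolation, summed to 10992 to 15010 CPM in numbers 1 to 4. In 18 to 23 they summed to 7163 to 11285 CPM in 5 samples and 14151 CPM in 0021. The part of either list in these differences was not tested. In the comparison of genotypes within Slc11a2-KD, 2 of the 18 were called higher, near the 9.77% of all genes called higher.

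With a term for numbers 18 to 23, the knockdown comparison in APP/PS1 gave log2 fold changes of 0.06 for Skil, 0.03 for Ski, 0.08 for Smad3, 0.01 for Tgfb1 and -0.09 for Tgfbr2, all with an adjusted p of 1. That fit takes the difference between the runs from the Slc11a2-KD samples alone and leans on 0004, the 1 APP/PS1 sample of numbers 1 to 4. It also treats numbers 1 to 4 as one run with the Control samples. No run holds both Control and Slc11a2-KD samples, so the run and the treatment cannot be told apart for any Slc11a2-KD sample of either genotype. In the comparison of genotypes within Slc11a2-KD, where 9.45% of all genes were called with the term, it left Tgfbr1 at -0.58 (adjusted p = 8.23e-05) and Smad2 at -0.31 (adjusted p = 0.0218), put Tgfbr2 past the threshold at 0.65 (adjusted p = 0.0113), and took Smad3 to -0.40 (adjusted p = 0.168) and Smad4 to -0.32 (adjusted p = 0.0652). Within numbers 18 to 23 alone, with 2 WT and 4 APP/PS1 samples, Tgfbr1 was at -0.70 (adjusted p = 0.0529).

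Summed exon length moved with these differences across all genes. In 4 equal bins of exon length, from the shortest to the longest, the median log2 fold change of Slc11a2-KD against Control in APP/PS1 was 0.34, 0.15, -0.06 and -0.27. Between the runs it was 0.49, 0.22, -0.06 and -0.43. For APP/PS1 against WT within Slc11a2-KD it was 0.305, 0.04, -0.11 and -0.315. Between the Control groups it stayed between 0.05 and -0.04. No member lay in the shortest bin, Tgfb1 and Smad7 lay in the second, Nrros, Tgfbr1, Smad3, Smad4 and Ski in the third, and Tgfbr2, Smad2 and Skil in the longest.

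Against the median of its own bin in the knockdown comparison in APP/PS1, Tgfb1 stood at -0.49, Ski at -0.45, Smad3 at -0.39 and Skil at -0.38. Tgfbr2 and Smad4 stood at -0.18 each, and Smad2 at 0.15. In the comparison of genotypes within Slc11a2-KD, the members called stood at -0.56 (Smad3), -0.46 (Tgfbr1), -0.34 (Smad4) and -0.06 (Smad2) against their bin medians. The part of length in the members' values was not tested.

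**Figure D4:**
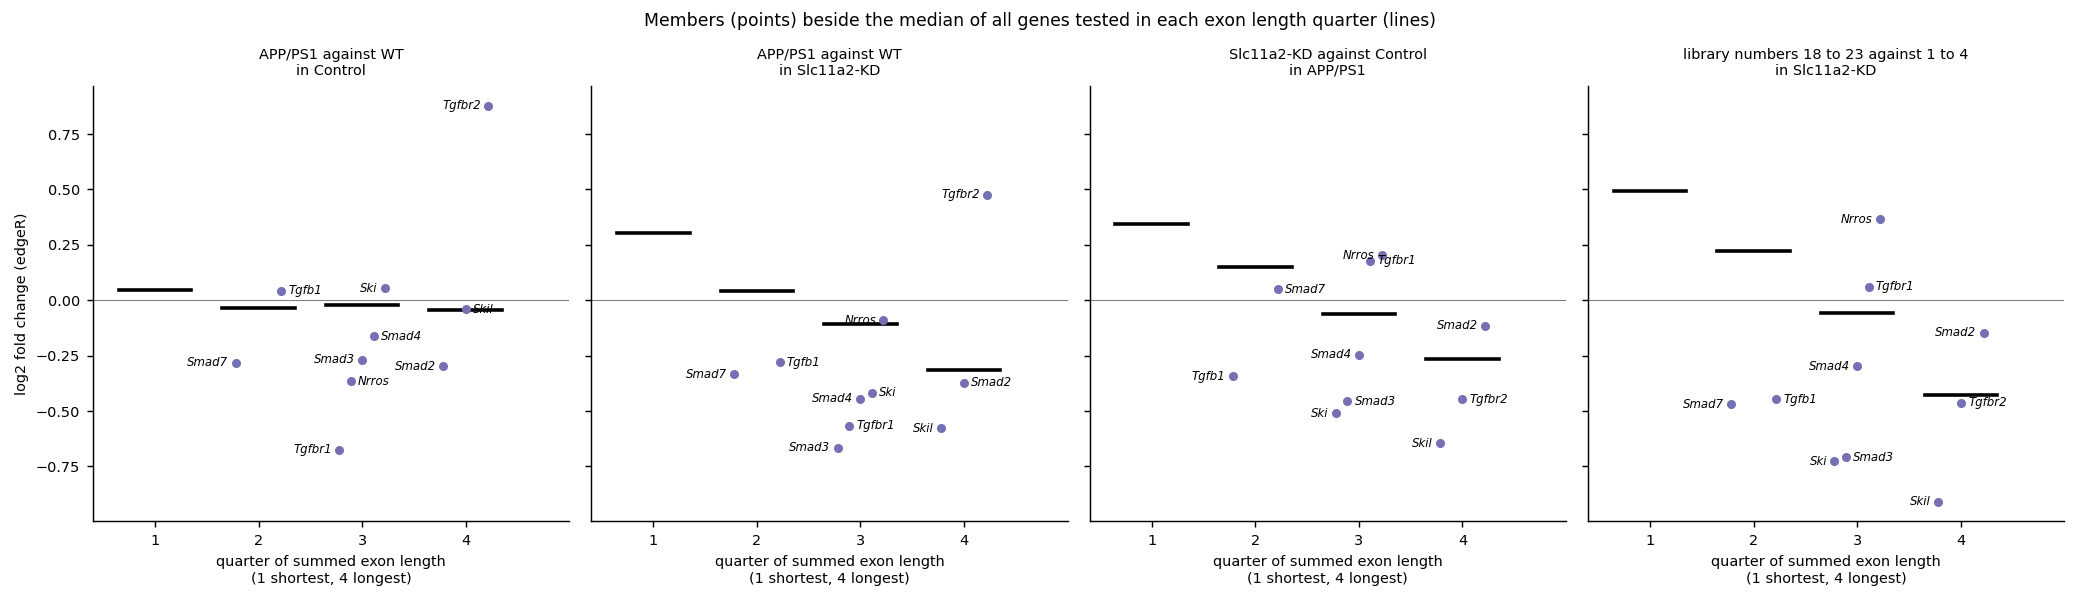
Log2 fold change (vertical axis) by bin of summed exon length (horizontal axis, 4 bins of equal gene number) for APP/PS1 against WT in Control and in Slc11a2-KD, Slc11a2-KD against Control in APP/PS1, and library numbers 18 to 23 against 1 to 4, with lines for the median of all genes in a bin and labelled points for the members. The medians are nearly flat in the first panel and fall from 0.305 to -0.315 in the second, from 0.34 to -0.27 in the third and from 0.49 to -0.43 in the fourth.

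The interaction asked whether the difference between Slc11a2-KD and Control is the same in APP/PS1 and WT, and no member passed. edgeR called 0 of 18759 genes, DESeq2 25 and limma voom 1, with 9.08% of all genes and 0 members at an unadjusted p under 0.05. The fitted interactions ran from -0.54 for Skil to 0.28 for Nrros. Those of the receptors were -0.40 for Tgfbr2 (SE 0.24, adjusted p = 0.55) and 0.11 for Tgfbr1. With the term for numbers 18 to 23, Skil was at -0.12, Tgfbr2 at -0.23 and Nrros at 0.15. With 1 sample left out, Skil ran from -0.73 to -0.36 and Tgfbr2 from -0.56 to -0.27. The differences of Smad3, Ski and Skil between Slc11a2-KD and Control in APP/PS1 were therefore not shown to depart from those in WT.

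Other genes of the pathway were counted from lists without the 10 members. Of 17 genes for the latent ligand and its release, 3 rose and 1 fell in Control APP/PS1 against Control WT. Over all genes tested, 5.99% were called higher and 4.48% lower in this comparison, and the lists are read against these shares. Itgb3, a subunit of an integrin that binds latent TGF-beta, rose by 0.94 on the log2 scale (adjusted p = 4.54e-05), from 69.8 ± 13.2 to 134 ± 16.7 CPM (SD, n = 6 each). Plau, the urokinase protease, rose by 1.26 (adjusted p = 4.77e-05), and Thbs1, a matrix protein that can free the ligand, by 1.34 (adjusted p = 0.00127) from 9.04 ± 2.92 CPM. Ltbp4, a latent TGF-beta binding protein, fell by 1.71 (adjusted p = 0.00597) from 23.02 ± 7.56 CPM.

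Of 25 genes for receptor level and turnover, 1 rose and 4 fell. Bambi, a receptor-like protein without a kinase, rose by 1.61 (adjusted p = 0.0028) from 8.72 ± 5.10 to 26.7 ± 4.22 CPM. Pmepa1 and Ldlrad4, which bind SMAD2 and SMAD3 and dampen their activation, fell by 0.48 (adjusted p = 0.00533) and 0.41 (adjusted p = 0.0253). Cav1, the caveolin coat protein abundant in endothelium, fell by 1.52 (adjusted p = 0.000685) from 22.9 ± 5.63 CPM. Endothelial and mural markers summed to 149 to 359 CPM in Control WT and 96.9 to 127 CPM in Control APP/PS1, without overlap. Their part in the values of Cav1, Ltbp4, Id1, Bmp2 and the rest of these lists was not tested. Without 0012 and 0015, where 6.91% of all genes were called, the count of this list was 1 higher and 2 lower, and Ldlrad4 was no longer called (adjusted p = 0.0855).

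None of 22 Smad cofactors passed, with 3 at an unadjusted p under 0.05, as were 4558 of 18759 genes. DESeq2 and limma voom called 3 of the 22 each, all lower, against 13.6% and 18.2% of all genes in either direction. Of 17 genes known to be induced by TGF-beta in other cells, 1 rose and 5 fell, and Bambi and Pmepa1 were on both lists. Id1, an inhibitor of DNA binding, fell by 1.205 (adjusted p = 0.017) from 19.8 ± 7.39 CPM, and Itgae, an integrin chain, fell by 1.56 (adjusted p = 0.0224) from 3.56 ± 1.77 CPM. Without 0012 and 0015, 1 rose and 2 fell in this list, and Id1 was not among them (adjusted p = 0.158). Of 21 genes of the activin and BMP arm, 2 fell and none rose, against 10.5% of all genes in either direction. Acvr2a, an activin receptor, fell by 0.93 (adjusted p = 0.0025) and Bmp2 by 1.51 (adjusted p = 0.0176) from 2.996 ± 1.11 CPM.

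Of 20 microglial genes that depend on TGF-beta, 7 fell and none rose, against 4.48% of all genes lower, with a median log2 fold change of -0.42 against -0.02 over all genes. Tmem119, a microglial membrane protein, fell by 1.08 (adjusted p = 7.02e-08) from 4613 ± 221 to 2177 ± 373 CPM, and P2ry12, the ADP receptor of microglial processes, by 0.98 (adjusted p = 8.7e-07) from 5351 ± 831 to 2709 ± 288 CPM. P2ry13, a related receptor, fell by 0.81 (adjusted p = 3.37e-05) and Slc2a5, the fructose transporter, by 0.77 (adjusted p = 7.11e-05). The list summed to 62911 to 71841 CPM in Control WT and 48065 to 57298 CPM in Control APP/PS1. In Slc11a2-KD, it summed to 63010 to 69377 CPM in WT and 51873 to 55611 CPM in APP/PS1. The APP/PS1 and WT ranges were apart under both treatments, as those of Tgfbr1 were. The sums of the 9 microglial markers, which share Tmem119 and P2ry12 with this list, were apart under both treatments too. They spanned 37691 to 42810 CPM in Slc11a2-KD WT and 32063 to 36232 CPM in Slc11a2-KD APP/PS1.

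In APP/PS1 against WT within Slc11a2-KD, where 9.77% of all genes were higher and 6.41% lower, 10 of the 20 fell, with P2ry12 at -1.03 and Tmem119 at -0.92. Of the receptor turnover genes, 2 rose and 8 fell, with Pmepa1 at -0.85 (adjusted p = 4.17e-05) and Bambi at 2.18 (adjusted p = 0.000437). With the term for numbers 18 to 23, these counts were 0 rose and 8 fell, and 1 rose and 6 fell, with 9.45% of all genes called. Without 0004 they were 0 rose and 11 fell, and 3 rose and 13 fell, with 25.6% called. The Smad cofactors gave 3 lower, among them Sp1 at -0.64 and Sall1 at -0.96, which became 0 with that term and 11 without 0004, as the share of all genes called went from 16.2% to 9.45% and to 25.6%. The latent ligand list gave 2 in each direction, the induced genes 1 higher and 4 lower, and the activin and BMP arm 2 lower (Smad1 at -0.70 and Acvr1 at -0.59). Of the genes named between the Control groups, Thbs1 at 0.05 (adjusted p = 0.943) and Id1 at -0.44 (adjusted p = 0.434) were not called here. Nor were Acvr2a at -0.46 (adjusted p = 0.143) and Bmp2 at -0.06 (adjusted p = 0.957). The other genes named there were called again in the same direction. With the term, the latent ligand list gave 2 higher and 0 lower, the induced genes gave the same counts, and the activin and BMP arm gave 1 lower, with Acvr1 no longer called (adjusted p = 0.1). Without 0004, the latent ligand list gave 2 higher and 3 lower, the induced genes again 1 and 4, and the activin and BMP arm 1 higher and 4 lower. In both comparisons of Slc11a2-KD with Control, edgeR and limma voom called no gene of any of these lists. At an unadjusted p under 0.05, edgeR counted 0 to 1 gene per list in WT, against 5.92% of all genes. In APP/PS1, against 20.6% of all genes, it counted 6 of 17 in the latent ligand list, 8 of 25 in receptor turnover, 5 of 22 Smad cofactors, 1 of 17 induced genes, 5 of 20 in the microglial list and 4 of 21 in the activin and BMP arm. The Smad cofactors, the microglial list and the activin and BMP arm thus lay near that share. DESeq2 called none in WT, and in APP/PS1 it called 1 gene of the latent ligand list, 2 of receptor turnover and 1 of the microglial list, beside 580 of all genes.

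**Figure D5:**
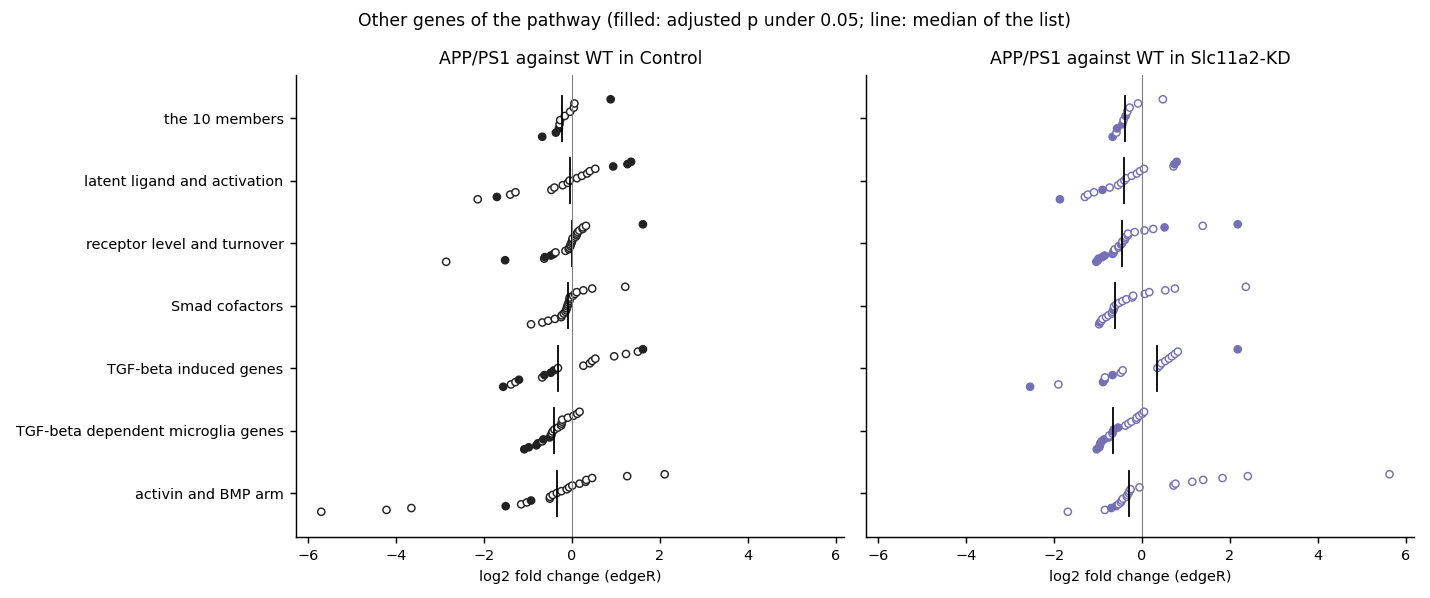
Log2 fold change of every gene of each pathway list (members left out of the other lists) for APP/PS1 against WT in Control and in Slc11a2-KD, with filled points for adjusted p under 0.05 and a vertical line for the list's median. Filled points of the 20 microglial genes that depend on TGF-beta, 7 in Control and 10 in Slc11a2-KD, all lie below 0.

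By the root mean square difference of centred log2 CPM over the 22 samples, the pattern most like that of Tgfbr1 was that of Casp8 (0.100), followed by 0610040J01Rik (0.114) and Mgat1 (0.115). Tgfbr1 itself varied by 0.335 about its mean on this scale.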

How the data were processed

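Libraries were prepared from CD11b-selected hippocampal cells of 23 female mice and sequenced as paired ends. Per the submitters' processing notes, reads were trimmed with Trim Galore 0.6.7, aligned with STAR to mm39 and passed to DESeq2 1.36.0. The deposited gene counts (18876 genes) were used for every test. The signal values that the authors deposited beside them, counts divided by DESeq2 size factors, served only as an alternative for the levels. Authors' own fold changes were not used.

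Sample 0010 was left out, as the Control APP/PS1 sample absent from the study's heat map. The 18759 genes that reached 5 counts in 3 or more samples were fitted over all 4 groups with edgeR 4.0.16 (TMM scaling, quasi-likelihood test, Benjamini-Hochberg adjustment, R 4.3.3), two-sided. DESeq2 1.42.0 and limma 3.58.1 (voom with sample quality weights) were alternatives, beside other scaling, filters, samples and a term for library numbers 18 to 23. Counts per sample ranged from 31128643 to 54872491, and every member had at least 1105 counts in each sample used. Counting error was not set against the spread between samples. It weighs more for genes of few reads, such as Itgae at 0.44 to 1.04 CPM in Slc11a2-KD APP/PS1. Centred patterns used log2 of CPM plus 0.5. CPM per kb used the summed length of all annotated exons, with a length for 18615 of the genes tested.

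On simulated counts for APP/PS1 against WT in Control (17849 genes, 200 changed by 1.5 on the log2 scale), edgeR recovered 81% with 12 false calls. DESeq2 recovered 88% with 28 false calls and limma voom 78.5% with 11. Every member changed by less than 1.5, so these shares do not say how often changes of their size would be called. The members and lists were chosen with earlier results of these data known. All 10 members were named in each comparison. For each other list the 4 genes with the smallest p past the threshold were named between the Control groups and 2 elsewhere, and for Tgfbr1 the 3 genes of at least 10 CPM with the nearest pattern. Listed genes without a row, such as Fcrls and Ltbp2, were not analysed here.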

Additional observations from a re-analysis of the deposited data

Results flagged for a closer look

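Skil stood apart in 1 sample. In Slc11a2-KD APP/PS1 0004 it measured 211 CPM, and the nearest of the other 4 samples had 135 CPM, a gap of 0.719 of the group's whole range. It was the 1 flag among 40 sets of samples examined (10 genes in 4 groups), and chance flags about 5% of such sets. Sample 0004 is also the 1 APP/PS1 sample of library numbers 1 to 4, and the 3 Slc11a2-KD WT samples of those numbers measured 223 to 311 CPM. Why it differs was not tested.

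Nrros was high in the Control APP/PS1 sample that was left out. Sample 0010 had 337 CPM, above the highest of the other 6 Control APP/PS1 samples (282 CPM) and within the Control WT range of 290 to 373 CPM. Of the other members, 7 lay below all 6 samples of that group in 0010, and Tgfbr1 and Smad7 lay within their range. Lymphocyte markers summed to 490 CPM in 0010 against at most 16.2 CPM in the other Control APP/PS1 samples, and their part in the members' values was not tested.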

How the results depend on the processing

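No paired analysis was possible because the replicate numbers are library numbers, and no number occurs in more than 1 group. Of the 100 log2 fold changes of APP/PS1 against WT in Control under 10 other settings, 88 kept their direction and side of the threshold. With an absolute log2 fold change above 1 required beside the adjusted p, 0 members were called in either comparison of genotypes. Of all genes, 4.89% were then called between the Control groups and 5.89% within Slc11a2-KD. Between the Control groups, 2 members were called without Control WT 0012 and 0015, with 6.91% of all genes. Leaving out any 1 sample there gave 3 to 4, with 8.35% to 10.5% of all genes. Within Slc11a2-KD, limma voom called 7 members with 23.5% of all genes called, and a fit of the compared groups alone called 1 with 6.1%. Library numbers 18 to 23 alone gave 0 with 2.09%. Leaving out 1 sample gave 2 (without 0002, with 10.6% of all genes) to 6 (without 0004, with 25.6%). For Slc11a2-KD against Control in APP/PS1, leaving out 1 sample gave 0 to 4, with 4 without 0004, where 16.4% of all genes were called. No setting called a member in WT or for the interaction. Over all genes, settings that kept all samples or dropped more than 1 called 918 to 3421 between the Control groups (1965 as reported) and 327 to 4414 within Slc11a2-KD (3034 as reported), and leaving out 1 sample gave 1561 to 1969 and 1977 to 4781. The causes of these shifts were not tested, apart from the smaller number of samples or genes in some settings. The authors' size-factor values changed the log2 ratio of group means by at most 0.040 in 40 ratios.

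Values of uncalled members changed sign as follows, all on the log2 scale. Between the Control groups, Tgfb1 was at -0.0019 with at least 10 counts in every sample, -0.0449 with 0010 kept and -0.0042 without 0012 and 0015. Ski was at -0.0413 with 0010 kept, and Skil at 0.0334 without 0012 and 0015. Within Slc11a2-KD, Nrros was at 0.0074 in limma voom. In WT, limma voom gave 0.0550 for Tgfb1 and 0.1178 for Skil. The term for numbers 18 to 23 gave 0.1506 for Tgfb1, 0.1383 for Tgfbr2, 0.0220 for Smad2, 0.2030 for Smad3, 0.2346 for Ski and 0.1808 for Skil. Slc11a2-KD WT of numbers 1 to 4 alone gave 0.1167 for Tgfb1, -0.0198 for Tgfbr1, 0.0711 for Tgfbr2, 0.0090 for Smad2, 0.1376 for Smad3, 0.1517 for Ski and 0.2019 for Skil, and numbers 18 to 23 alone gave 0.1729 for Nrros, -0.1467 for Smad4 and -0.2028 for Smad7. In APP/PS1, the term gave 0.0136 for Tgfb1, -0.0807 for Nrros, 0.0138 for Smad2, 0.0750 for Smad3, 0.0001 for Smad4, 0.0266 for Ski and 0.0603 for Skil, and limma voom gave -0.0112 for Smad7. The interaction of Smad7 was 0.1494 with the term and 0.0068 without 0012 and 0015.

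Leaving out 1 sample also moved uncalled values across 0. Between the Control groups, Ski ran from -0.0143 to 0.1045 and Skil from -0.1449 to 0.1118. In WT, Tgfb1 ran from -0.0845 to 0.0681, Nrros from -0.1578 to 0.0054, Tgfbr2 from -0.1297 to 0.0448, Smad3 from -0.1850 to 0.0486, Smad4 from -0.0585 to 0.0744, Ski from -0.1999 to 0.0719 and Skil from -0.2906 to 0.0449. In APP/PS1, Smad7 ran from -0.0586 to 0.1242, and its interaction from -0.1603 to 0.0389.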
